A study of Populus ussuriensis with 18 samples.

Results

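The class I KNOX genes of poplar known as ARBORKNOX1 (ARK1, Potri.011G011100) and ARBORKNOX2 (ARK2, Potri.002G113300) were followed together with the close paralog of ARK1 (Potri.004G004700). These 3 of 36385 loci were chosen by identifier and not by their levels, though earlier results of these data were known. Levels are in FPKM, a measure of reads per transcript length and per library size, added up over the transcripts of each locus. RNA came from the lowest 0.5 cm of stem cuttings of Populus ussuriensis, a poplar, taken from 2-week-old plants grown in vitro. Such cuttings form adventitious roots, which arise on tissue other than a root. The 9 groups were 0, 0.5, 1, 2, 6, 12, 24, 48 and 96 h after cutting, with 2 libraries each and 18 in all. All groups shared the medium with 20 g/L sucrose and a cycle of 16 h light and 8 h dark at 25 °C, and none is described as carrying a transgene or receiving an added hormone.

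KNOX genes encode homeodomain transcription factors of the TALE class, which bind DNA together with BEL1-like partners. Class I members keep cells of the shoot apical meristem undifferentiated, in part by favouring cytokinin over gibberellin. ARK1 is related to SHOOT MERISTEMLESS of Arabidopsis, the gene that maintains the shoot meristem, and ARK2 to BREVIPEDICELLUS of Arabidopsis, which shapes internodes. In poplar stems both act in the vascular cambium, the cell layer that forms wood and phloem.

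The labels do not tell whether the paired libraries of a time point came from different plants. Every p-value takes libraries as its units, and their spread may be technical. No uncut stem was sampled at later times and the time of day is not given, so time since cutting, light phase and plant age cannot be told apart. A bulk level also cannot tell fewer cells of a type from less RNA per cell. Steps between low FPKM values correspond to between 28460172 and 30651830 reads per library after cutting. The 0 h totals, 10957286 and 12513099 reads, were instead read from the transcript lengths recovered after cutting. At 0 h the tables were made differently, as the transcripts of ARK2 show. After cutting ARK1 rested on 131 to 942 reads per library, its paralog on 693 to 4095, and the transcripts of ARK2 on 639 to 4585, so the counting error of a library was at most 8.74% of the level. Reads shared between ARK1 and its paralog may have been split by the authors' counting, so the division of reads between them is uncertain. Markers of the stem tissues were not analysed here.

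All 3 genes were highest at 0 h and next highest at 0.5 h, and all stood below their 0.5 h level at every later time. They parted after 1 h. ARK1 had its lowest level at 6 h. ARK2 had its lowest mean at 2 h, where its libraries overlapped those of 6 h. The paralog had a second, lower maximum at 12 h, and its lowest mean, at 48 h, overlapped 2 h. In the F test over the 8 times after cutting (limma on log2(FPKM + 1), Benjamini-Hochberg adjusted over 26765 loci), the adjusted p was 1.78e-07 for ARK1, 1.30e-05 for the paralog and 1.50e-07 for ARK2. Of all tested loci 91.3% passed the same test, so passing it does not set the KNOX genes apart.

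ARK1, the relative of SHOOT MERISTEMLESS, was the lowest of the 3 genes in every library. It had 39.4 and 33.0 FPKM at 0 h, 23.1 and 24.5 FPKM at 0.5 h, and 13.3 and 11.4 FPKM at 1 h. At 2 h it had 10.6 and 11.4 FPKM, at 6 h 3.38 and 4.07 FPKM, and at 12 h 8.47 and 8.25 FPKM. The 6 h libraries lay below all others, and the 12 h libraries lay below all but those. At 24 h ARK1 had 9.24 and 12.2 FPKM, at 48 h 11.8 and 11.9 FPKM, and at 96 h 11.6 and 16.1 FPKM. By mean, the order was 0, 0.5, 96, 1, 48, 2, 24, 12 and 6 h. In that order the libraries of neighbours overlapped for 96 with 1 h, 1 with 48 h, and 2 with 24 h. The highest mean after cutting, 23.8 ± 1.01 FPKM (SD, n = 2) at 0.5 h, was 6.38-fold the lowest, 3.73 ± 0.489 FPKM (SD, n = 2) at 6 h.

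The paralog of ARK1 had 148 and 155 FPKM at 0 h, 91.6 and 80.4 FPKM at 0.5 h, and 37.8 and 30.5 FPKM at 1 h. It had 22.7 and 17.1 FPKM at 2 h, 16.3 and 28.4 FPKM at 6 h, and 37.9 and 45.7 FPKM at 12 h. Both 12 h libraries lay above all libraries of 1 h and later, and the 6 h libraries lay far apart. At 24 h the paralog had 16.0 and 25.8 FPKM, at 48 h 17.8 and 18.8 FPKM, and at 96 h 35.1 and 25.4 FPKM. By mean, the order was 0, 0.5, 12, 1, 96, 6, 24, 2 and 48 h, and from 1 h downward each neighbour overlapped the next. The highest mean after cutting was 4.70-fold the lowest.

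ARK2, the relative of BREVIPEDICELLUS, had 171 and 156 FPKM at 0 h, 118 and 106 FPKM at 0.5 h, and 61.0 and 48.1 FPKM at 1 h. It had 23.2 and 26.3 FPKM at 2 h, 24.4 and 34.9 FPKM at 6 h, and 39.5 and 42.9 FPKM at 12 h. The 12 h libraries lay above all libraries of 2 and 6 h. At 24 h ARK2 had 38.3 and 39.9 FPKM, at 48 h 41.3 and 40.8 FPKM, and at 96 h 46.9 and 49.2 FPKM. By mean, the order was 0, 0.5, 1, 96, 12, 48, 24, 6 and 2 h, with overlap of 1 with 96 h, 12 with 48 h, and 6 with 2 h. The highest mean after cutting was 4.51-fold the lowest.

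**Figure D1:**
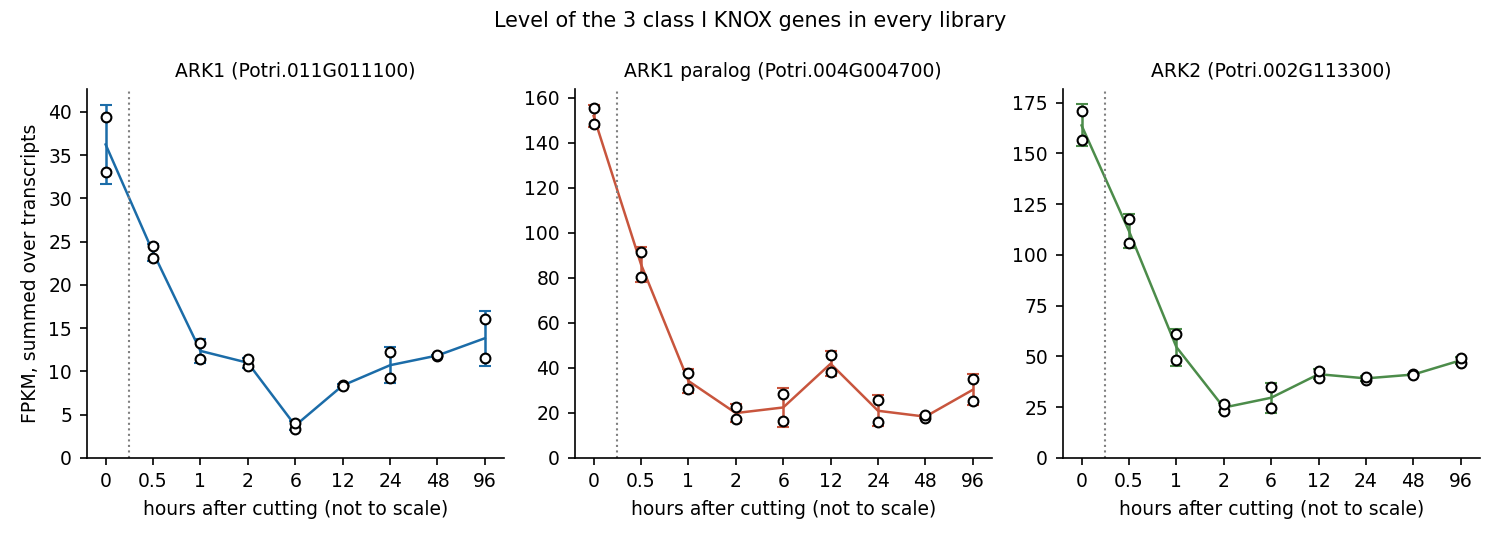
FPKM of ARK1, its paralog and ARK2 (vertical axes, each panel with its own scale) against hours after cutting (horizontal axis, not to scale); points are libraries, the line joins means and bars are SD (n = 2). All 3 genes are highest at 0 and 0.5 h, and the dotted line sets off the 0 h libraries, whose tables were made differently.

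Between 0.5 and 1 h all 3 genes fell. The change at 1 h against 0.5 h was -0.89 ± 0.15 for ARK1 (log2 of FPKM + 1, SE; adjusted p = 0.000345), -1.31 ± 0.25 for the paralog (adjusted p = 0.0007) and -1.03 ± 0.15 for ARK2 (adjusted p = 6.41e-05). No library of 1 h reached a library of 0.5 h for any of them. Of all loci 44.2% passed this test, 30.3% of all loci in the lower direction, and the median change over all loci was -0.17. These 3 calls held under every alternative run.

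Between 1 and 2 h ARK2 fell by 1.10 on the log2 scale (SE 0.15, adjusted p = 5.46e-05), where 36.4% of loci passed. The paralog fell by 0.76 (SE 0.25, adjusted p = 0.0272). That call was lost without 1 h library 1 (-0.61, adjusted p = 0.179) and without 2 h library 2 (-0.56, adjusted p = 0.194). For ARK1 the value was -0.15 ± 0.15 (SE, adjusted p = 0.482).

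Between 2 and 6 h the ARK1 level fell by 1.35 (SE 0.15, adjusted p = 5.44e-06), to 3.73 FPKM at 6 h against 11.0 FPKM at 2 h. Of all loci 52.5% passed, and 4.59% of all loci had a change as low as that of ARK1 or lower. The paralog and ARK2 had values of 0.13 ± 0.25 and 0.23 ± 0.15 (SE, adjusted p = 0.701 and 0.205). Both values depended on single libraries. Leaving out 6 h library 1 or 2 gave 0.48 or -0.02 for ARK2, and 0.51 or -0.26 for the paralog. Leaving out 2 h library 1 or 2 gave 0.14 or 0.32 for ARK2, and 0.32 or -0.07 for the paralog.

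Between 6 and 12 h all 3 genes rose. The change was 0.99 ± 0.15 for ARK1 (SE, adjusted p = 0.00048), 0.92 ± 0.25 for the paralog (adjusted p = 0.0154) and 0.48 ± 0.15 for ARK2 (adjusted p = 0.0266). Here 23.9% of loci passed, 14.3% in the upward direction. ARK1 kept its call under every alternative run. The paralog lost it without 6 h library 1 (0.53, adjusted p = 0.215) or 12 h library 2 (0.79, adjusted p = 0.121). ARK2 lost it without 6 h library 1 (0.23, adjusted p = 0.343), without 12 h library 1 (0.54, adjusted p = 0.0516) or 2 (0.43, adjusted p = 0.151), and with the 4 libraries fitted alone (adjusted p = 0.0990).

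Between 12 and 24 h the paralog fell by 1.00 (SE 0.25, adjusted p = 0.0113), a change that only 1.58% of tested loci matched or went below, while 19.4% of loci passed the test in either direction. The call was lost without 12 h library 2 (-0.87, adjusted p = 0.0857) and without 24 h library 1 (-0.67, adjusted p = 0.130). ARK1 and ARK2 had values of 0.31 ± 0.15 and -0.07 ± 0.15 (SE, adjusted p = 0.184 and 0.791).

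No change of the 3 genes passed at 48 h against 24 h, where 5.07% of loci passed, or at 96 h against 48 h, where 28.5% did. At 96 h against 48 h the paralog had the largest value of the 3, 0.68 ± 0.25 (SE, adjusted p = 0.0544). It passed when those 4 libraries were fitted alone (adjusted p = 0.00994) and without either library of 6 h or of 24 h (adjusted p from 0.0261 to 0.0368).

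**Figure D2:**
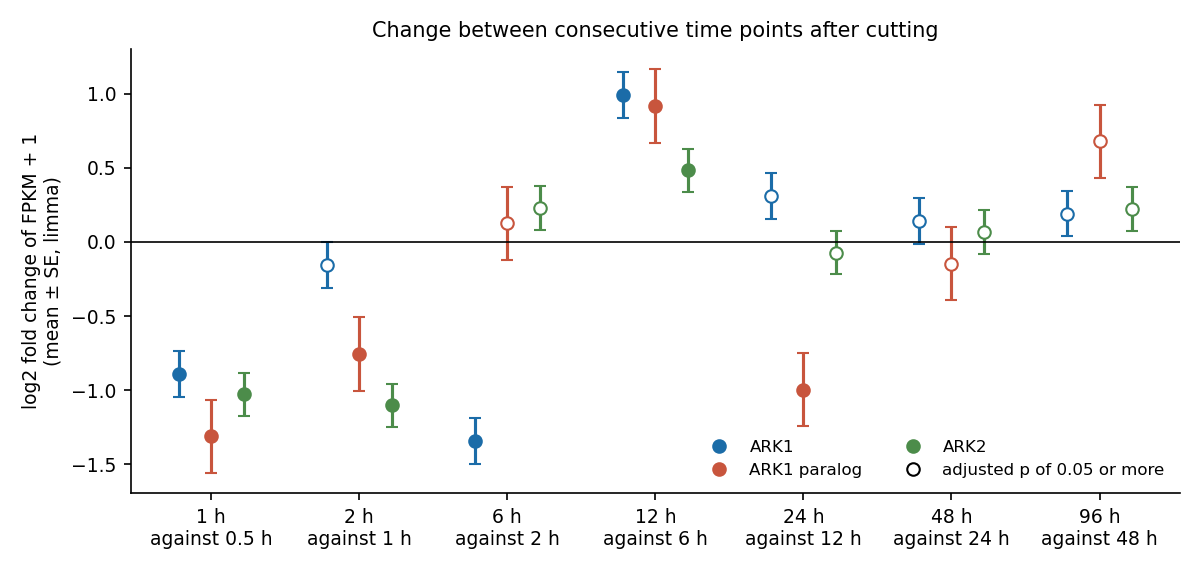
Log2 fold change of FPKM + 1 (vertical axis, limma estimate, bars are SE) at each time point against the one before it (horizontal axis) for ARK1, its paralog and ARK2; filled points passed an adjusted p of 0.05. All 3 genes lie below 0 at 1 h against 0.5 h and above 0 at 12 h against 6 h; the lowest filled points are ARK1 at 6 h against 2 h and the paralog at 1 h against 0.5 h.

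A pair of comparisons set times about whole days apart, since the light phase at sampling is not given. At 24 h against 0.5 h all 3 genes were lower, with -1.09 ± 0.15 for ARK1, -2.02 ± 0.25 for the paralog and -1.49 ± 0.15 for ARK2 (SE, adjusted p = 3.29e-05, 8.65e-06 and 8.97e-07). Of all loci 54.1% passed that test. At 96 h against 24 h the values were 0.34 for ARK1, 0.53 for the paralog and 0.29 for ARK2, none of which passed (adjusted p = 0.119, 0.123 and 0.153), while 29.9% of loci did. Single libraries moved these values both ways. ARK1 ran from 0.11 without 96 h library 2 to 0.56 without 96 h library 1 (adjusted p = 0.0311), and the paralog from 0.20 without 24 h library 1 to 0.86 without 24 h library 2 (adjusted p = 0.0391). ARK2 passed with the 4 libraries alone (adjusted p = 0.0348).

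Over the longer span, 24 to 96 h (late phase, 6 libraries) were set against 0.5 to 2 h (early phase, 6 libraries). All 3 genes were lower in the late phase, by -0.29 ± 0.089 for ARK1, -0.77 ± 0.14 for the paralog and -0.32 ± 0.084 for ARK2 (SE, adjusted p = 0.00903, 0.000177 and 0.0031). Over all tested loci the median change was 0.23, 78.2% passed, and 27.2% passed in the lower direction. With quantile normalization the median became 0.07 and the 3 genes had -0.43, -0.84 and -0.38. The result rested on 0.5 h: with 1 and 2 h alone as the early phase the values were 0.04 for ARK1 (adjusted p = 0.739), -0.20 for the paralog (adjusted p = 0.251) and 0.21 for ARK2 (adjusted p = 0.0535). The direction thus turned round for ARK1 and ARK2, and no value passed.

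**Figure D3:**
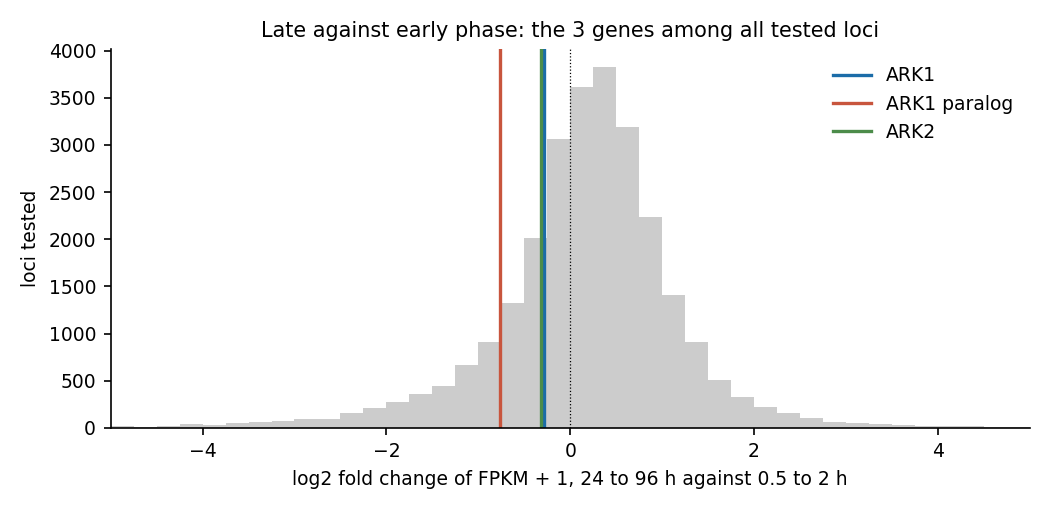
Number of tested loci (vertical axis) by log2 fold change of FPKM + 1 between 24 to 96 h and 0.5 to 2 h (horizontal axis), with a coloured line for each KNOX gene. The lines of ARK1, ARK2 and the paralog stand at -0.29, -0.32 and -0.77, below the median of all loci at 0.23.

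The balance between the genes was read as the log2 ratio of FPKM + 1 within a library. As plain FPKM, the paralog was between 1.5-fold (2 h library 2) and 6.98-fold (6 h library 2) the level of ARK1. The ratio was 4.83 and 6.98 at 6 h and 4.48 and 5.54 at 12 h, and it was 2.15 and 1.5 at 2 h and 1.51 and 1.59 at 48 h. The 6 and 12 h libraries thus lay above all others after cutting, and they did not overlap with them.

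The ARK2 to ARK1 ratio was lowest at 2 h, with 2.19 and 2.31, and highest at 6 h, with 7.20 and 8.55. The ARK2 to paralog ratio stood between 0.938 at 12 h library 2 and 2.39 at 24 h library 1. With transcript 1 of ARK2 alone, the same libraries gave 0.526 and 1.42, the extremes after cutting. Which of these genes was higher thus depended on summing the ARK2 transcripts. A permutation test of the F ratio over the 8 times (16 libraries, 100000 permutations, upper tail, adjusted over the 3 pairs) was added after the data were seen. It gave adjusted p = 0.00834 for paralog over ARK1, 0.00162 for ARK2 over ARK1 and 0.0380 for ARK2 over paralog. The last was lost without 0.5, 1, 12 or 48 h (adjusted p from 0.0539 to 0.143).

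Between phases no ratio passed the exact permutation test (6 against 6 libraries, smallest possible p 0.00216, two-sided, adjusted over 3 pairs). That test treats the libraries of a phase as interchangeable, though libraries of a time point share that time. Its spread thus includes differences between the times of a phase. The late minus early difference was 0.45 for ARK2 over paralog (0.901 ± 0.323 late, 0.449 ± 0.244 early, SD; exact adjusted p = 0.0779). It was -0.48 for paralog over ARK1 (exact adjusted p = 0.140) and -0.03 for ARK2 over ARK1 (exact adjusted p = 0.890). Without 96 h library 1 the ARK2 over paralog difference was 0.55 (exact adjusted p = 0.0390). With 1 time as the late phase it was 0.46 for 24 h, 0.67 for 48 h and 0.22 for 96 h, and paralog over ARK1 had -0.45, -0.74 and -0.26, with no test. The sign of ARK2 over ARK1 depended on single libraries and on the scaling.

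**Figure D4:**
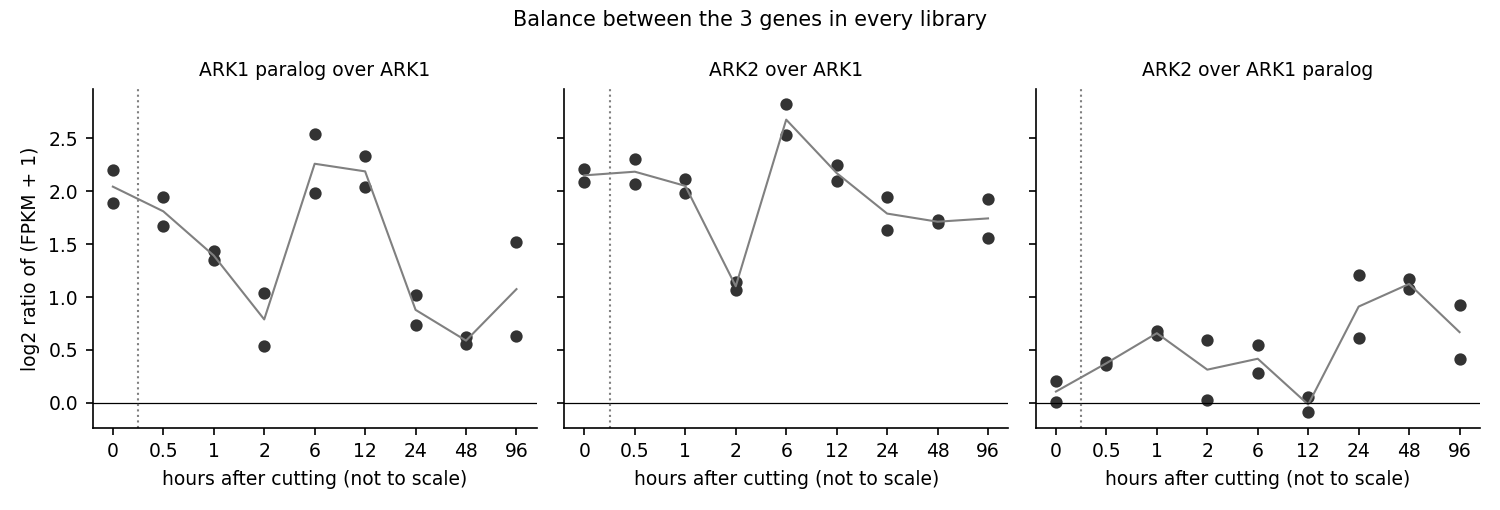
Log2 ratio of FPKM + 1 between 2 KNOX genes (vertical axis) in every library against hours after cutting (horizontal axis, not to scale); points are libraries and the line joins means. ARK2 over ARK1 is lowest at 2 h, paralog over ARK1 and ARK2 over ARK1 have their highest means at 6 h, and the mean of ARK2 over paralog is nearest 0 at 12 h.

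As a description over the 16 libraries after cutting, Pearson's r of log2(FPKM + 1) was 0.85 for ARK2 with the paralog, 0.75 for ARK2 with ARK1 and 0.55 for the paralog with ARK1. Over the time point means r was 0.58, 0.52 and 0.10 for the same pairs without 0.5 h, and 0.87, 0.75 and 0.58 with it. Among 17421 tested loci that spanned at least 1 log2 unit, the locus most like ARK1 was Potri.016G038100 (r = 0.947) and the one most like ARK2 was Potri.016G091800 (r = 0.965). No r without 0.5 h was computed for these loci. Potri.016G038100 had 37.6 and 31.6 FPKM at 0 h against 37.2 and 39.5 FPKM at 0.5 h. Potri.016G091800 had 7.95 and 9.06 FPKM at 0 h against 18.8 and 16.2 FPKM at 0.5 h. ARK1 and ARK2 were lower at 0.5 h than at 0 h. The numbers of loci with r over 0.8 were 237 for ARK1, 203 for the paralog and 496 for ARK2. Libraries of a time point share that time, so these values carry no test.

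The locus most like the paralog was Potri.004G004600 (r = 0.951), which is also its neighbour by number. ARK1 had a like neighbour in Potri.011G011200 (r = 0.843). The locus 3 numbers before the paralog, at most 3.81 FPKM in any library, had r = 0.816 with the paralog. The directly adjacent neighbours were looked at after their values were seen, and their functions are not given in the files. Whether they share reads with the KNOX loci beside them was not tested. Potri.004G004600 had 97.8 and 79.5 FPKM at 0.5 h against 21.4 and 25.1 FPKM at 0 h, while the paralog was lower at 0.5 h. Potri.011G011200 had 11.8 and 7.20 FPKM at 0.5 h and was listed at 0 in both 0 h libraries.

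ARK2 has 2 listed transcripts with the same recovered length, 2225 bp. After cutting, the transcript numbered 2 held between 40.7% and 43.9% of the locus. At 0 h it was listed at 0 in both libraries. The 0 h tables differed in the same way across loci: over 2595 loci with 2 transcripts, transcript 2 held a median of 42.5% to 43.1% after cutting and 4.31% and 3.66% at 0 h. No splicing difference of ARK2 was therefore read from these values, and the locus sum was used.

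**Figure D5:**
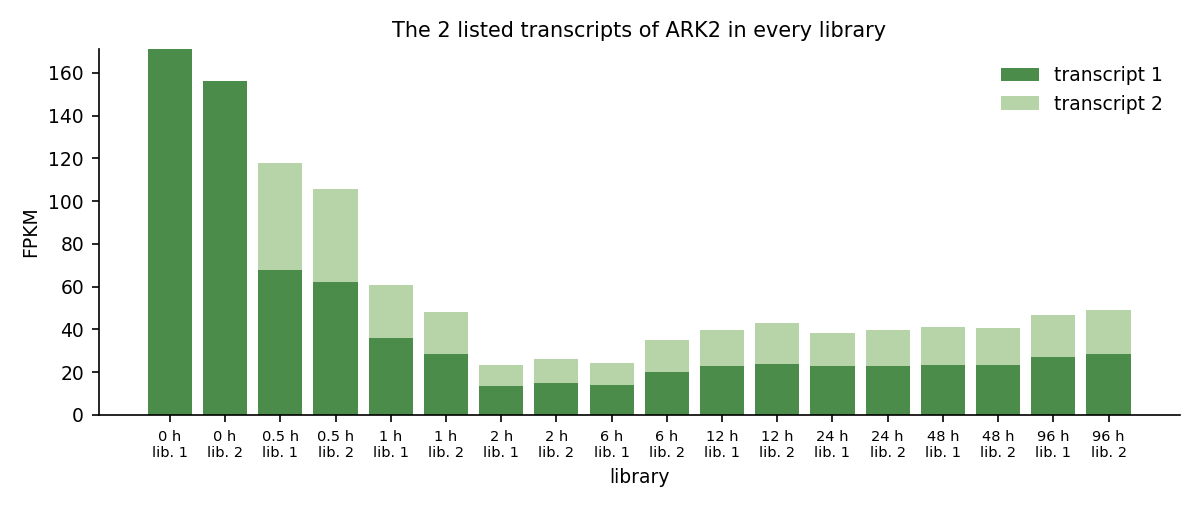
FPKM of the 2 listed transcripts of ARK2 (vertical axis, stacked bars) in every library (horizontal axis). Transcript 2 is listed at 0 in both 0 h libraries and holds 40.7% to 43.9% of the sum in the 16 later ones.

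Against 0 h, the study's baseline, all 3 genes were lower at each of the 8 later times, and all of these comparisons share the same pair of 0 h libraries, which carry the difference in tables. At 0.5 h against 0 h the values were -0.58 ± 0.15 for ARK1, -0.82 ± 0.25 for the paralog and -0.55 ± 0.15 for ARK2 (SE, adjusted p = 0.0061, 0.0135 and 0.00614). Of all loci 49.7% passed there. With the FPKM of each added to that of its neighbour, the values became -0.11 for ARK1 (adjusted p = 0.612) and -0.01 for the paralog (adjusted p = 0.987). Both calls were lost. Adding FPKM gives a read on the shorter neighbour (357 bp for ARK1, 588 bp for the paralog) more weight than one on ARK1 (1319 bp) or the paralog (1475 bp). Sums of reads were not tested. At 0 h the paralog had 2400 and 2867 reads and its neighbour 138 and 185, in totals of 10957286 and 12513099. At 0.5 h the paralog had 4095 and 3460 reads, in totals of 30311719 and 29167652, and its neighbour had at most 1744. ARK1 had 570 and 545 reads at 0 h, with 0 on its neighbour. At 0.5 h it had 922 and 942, and its neighbour at most 128. Per total, both read sums were lower at 0.5 h than at 0 h. The sums of FPKM for the paralog were 189 and 160 at 0.5 h and 170 and 180 at 0 h. Both calls were also lost without a single library, ARK1 without 0 h library 1 (-0.46, adjusted p = 0.0637) and the paralog without 0 h library 2 (-0.78, adjusted p = 0.0526) or 0.5 h library 2 (-0.72, adjusted p = 0.0854). For ARK2 the transcript numbered 1 alone gave -1.32.

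From 1 h on every call against 0 h held under all alternatives. ARK1 stood at -1.48, -1.63, -2.98, -1.99, -1.68, -1.53 and -1.34 at 1, 2, 6, 12, 24, 48 and 96 h. The paralog stood at -2.13, -2.88, -2.76, -1.84, -2.84, -2.99 and -2.31 at the same times. ARK2 stood at -1.58, -2.68, -2.45, -1.97, -2.04, -1.97 and -1.75. The shares of all loci that passed at these times were 67.5%, 68.8%, 64.6%, 61.7%, 58.4%, 62.9% and 65%. With the FPKM of the neighbours added, the range over these times was -2.60 to -1.0 for ARK1 and -2.32 to -1.15 for the paralog. At 96 h the means were 38.2% of the 0 h mean for ARK1, 19.9% for the paralog and 29.4% for ARK2.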

How the data were processed

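The authors deposited 1 table per library of transcript FPKM. The headers of the 0 h tables name FPKM per the file headers, and for the 16 later tables, headed by the library title, the unit was read from the values. The tools Bowtie2 2.2.3 and HISAT2 2.1.0 were used for steps that are not stated, per the submitters' processing notes. The quantification tool, like the build and annotation, is not given in the sources used here. Each table holds 65535 transcripts and ends within prefix 17, so shares of all loci and rankings cover only the loci listed. FPKM were summed per locus because 0 h tables place reads on transcripts differently. Loci with at least 1 FPKM in at least 2 libraries were tested on log2(FPKM + 1), which understates changes of low loci. limma 3.58.1 in R 4.3.3 fitted 1 mean per time point to all 18 libraries, with trend and robust variance, two-sided. Calls were Benjamini-Hochberg adjusted p below 0.05 within a comparison. The same procedure was also tested on simulated data. Ratios used SciPy 1.17.1.

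To recover whole reads after cutting, read totals between 20000000 and 40000000 were searched for those that give whole-number lengths. Totals are thus known up to a common factor. The 0 h totals were instead read from those lengths, using loci with 1 listed transcript. Each length had to give whole reads within 0.01 in all libraries after cutting, so their 100% was set by the search. With those lengths, 38.7% and 37.9% of values were whole at 0 h. For loci with 1 transcript, 83.4% and 83.2% were whole at 0 h. Counts cover counting error only.

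The members, comparisons and lists were chosen with earlier results of these data known. Named loci were the 5 most like each gene and neighbours within 3 locus numbers, of which 4 identifiers are printed. Lists of related genes and tissue markers need an annotation and were not analysed here. Alternatives were another pseudocount, no filter, quantile normalization, transcript 1 alone, other sets of libraries, a replicate block, limma-voom on recovered reads, no trend, and libraries left out in turn.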

Additional observations from a re-analysis of the deposited data

How the results depend on the processing

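Over the 3 genes and 3 ratios, 244 alternative values of the main results were stable, meaning the same direction and side of the threshold or, where there was no test, a move of less than the SD between libraries. Another 1 passed newly, 5 no longer passed and 9 turned round. For single intervals and comparisons against 0 h, 1332 were stable, 10 passed newly, 15 no longer passed and 6 turned round. Many alternatives, such as leaving out a library outside the groups compared, left the value as it was. They could change only its adjusted p, so the number of stable values overstates how far the direction was tried.

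Without 0.5 h, a choice made after the data were seen, the late against early change was 0.038 for ARK1 and 0.21 for ARK2, both turned round, and -0.20 for the paralog. The late minus early difference of ARK2 over ARK1, -0.03, turned to 0.17 without 0.5 h and 0.0498 with quantile normalization, and was 0.00976 with 24 h alone as the late phase. Leaving out each library in turn, it ran from -0.17 to 0.0737, and that of ARK2 over paralog from 0.37 to 0.55. The F ratio for ARK2 over paralog was 3.88 without 0.5 h, 3.99 without 1 h, 2.43 without 12 h and 2.42 without 48 h, against 3.96 with all times.

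Leaving out single libraries moved 6 h against 2 h from -0.0208 to 0.48 for ARK2 and from -0.26 to 0.51 for the paralog. It moved 48 h against 24 h from -0.47 to 0.18 for the paralog and from -0.0387 to 0.33 for ARK1, and 96 h against 48 h from -0.0293 to 0.41 for ARK1. None of these changes is called with all libraries. The cause of these changes was not tested.

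Library numbers follow accession order and do not pair libraries. Deviations of same-numbered libraries had a median r of -0.0026 over 28 pairs of times, with 3 over 0.1. With the number as a replicate block, 20858 of 26765 loci passed late against early, against 20928 without it, the change of ARK1 was -0.29 (adjusted p = 0.00938), and no call of the 3 genes changed.

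Quantile normalization moved the median of all loci at 1 h against 0.5 h to -0.04. With 2 libraries per time, small changes of the 3 genes lie within their spread, and counting error limits ARK1 most at 6 h. Counts over lists of related genes were not run.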
